A study of Mus musculus with 12 samples.

Results

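Radiofrequency heating of the dorsal skin was examined in 4-month-old male ICR mice, an outbred stock, by RNA sequencing of a treated and an untreated area of the same animal. The 2 groups held 3 libraries each, 1 treated and 1 untreated library from each of 3 mice, numbered here mouse 1 to mouse 3 in the order of the numbers in the sample labels. Both areas lay on the back of an anaesthetized animal that had its hair removed, and the treated area was covered with gel and massaged every other day for a week with a multipolar radiofrequency device until its temperature indicator came on. The model thus compared skin that received gel, massage and heating with skin that received none of these, and heating cannot be told apart from gel and massage. The methods describe samples chosen for their pathological phenotype and RNA stability. The whole series held 12 libraries from 6 mice, the others being the same 2 areas from 3 mice at 1 year of age.

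The deposited table listed 465 genes, and 152 of them had a mean of at least 10 estimated counts over the 6 libraries of 4-month-old skin. These 152 genes are the members described below, and the other 313 were not. The least abundant members were Myf5, with a mean count of 10.3, C130050O18Rik, with 10.5, and Kng2, with 10.6, and the genes just outside were Ccdc24 with 9.87, Ces2b with 9.83 and Ptprn2 with 9.33. All 465 listed genes differed at least 1.2-fold between the group means at 4 months, the smallest difference being 0.267 on the log2 scale, so the table was a selection of genes on this very comparison. A difference between the group means is therefore a property of the list and not a result, and what the data can add is how alike the 3 mice were, how large the change was, and what the same genes did in the 1-year-old mice.

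The 6 libraries held between 21700000 and 25200000 fragments, and the listed genes took between 0.358% and 0.732% of a library. Levels are given as FPKM, fragments scaled by the length of the transcript and by the total of the library. A change is the treated minus the untreated value of log2(FPKM + 0.5) within a mouse, so changes of weakly expressed genes are understated. The genes with the highest mean FPKM were Krt10, Calm4, Krtdap, Krt1 and Flg, all made by keratinocytes of the upper epidermis, which skin should hold. No gene of the lists for fibroblasts, adipocytes, sebaceous gland, smooth muscle and endothelium, melanocytes, red blood cells or heat shock proteins was in the table, so these lists had no value here. The lists did not hold every gene of their kind. Among the members outside them were Dnajb9, of the DnaJ family of heat shock proteins, and Gpr143, a receptor of pigment cells.

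One of the 6 libraries stood apart. Treated skin of mouse 3 held fragments of genes whose products are made in the liver and in the pituitary gland. A list of 38 liver genes, drawn up after their counts had been seen, summed to 124, 180 and 129 counts in untreated and 413 and 302 counts in treated skin of mice 1 to 3 and 1 and 2, and to 1606 counts in treated skin of mouse 3, where all 38 exceeded 3 counts. In 1-year-old skin the list summed to 88, 147 and 205 counts untreated and to 119, 399 and 98 counts treated, so treated skin of the second mouse was the highest there. At 4 months Prl, the pituitary hormone prolactin, had 139 counts in treated skin of mouse 3 and 0 in the other 5 libraries of this age. Of 97 listed genes with any count above 0 in only 1 of the 6 libraries, 37 had it in treated skin of mouse 3 and between 6 and 20 in each of the others.

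**Figure D1:**
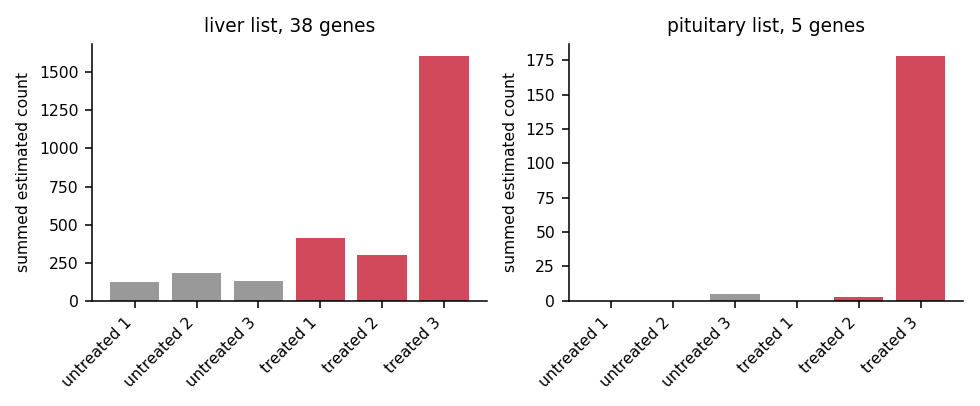
Summed estimated counts of 38 liver genes (left) and 5 pituitary genes (right), both lists drawn up after the counts had been seen, in each of the 6 libraries of 4-month-old skin. Grey bars are untreated and red bars treated skin of mice 1 to 3, and treated skin of mouse 3 reached 1606 and 178 counts.

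The skin surface is built by keratinocytes that leave the basal layer, switch to the keratin pair Krt1 and Krt10, and then assemble keratohyalin granules and the cornified envelope from proteins such as filaggrin, loricrin and the late cornified envelope proteins. Immediate-early genes encode transcription factors and phosphatases whose mRNAs appear within minutes of growth factors, stretch, injury or heat and decay quickly. The dermis and its immune cells respond to injury with cytokines, with proteases that cut matrix and with recruitment of leukocytes.

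Of the 152 members, 93 were higher and 32 lower in treated skin of all 3 mice, and 27 did not move alike, so 82.2% changed alike in the 3 pairs. This excess of higher members rested on scaling by library totals, since it was 39 higher and 37 lower with TMM factors and 25 and 40 when libraries were scaled by the listed counts. The change was modest in size. The median of the mean changes was 0.48, and the medians were 0.24, 0.32 and 0.50 in mice 1, 2 and 3. On the log2(FPKM + 0.5) scale, which shrinks ratios of low levels, a change of at least 1.2-fold in every mouse was seen in 41 members upward and 18 downward, one of at least 1.5-fold in 5 and 4, and one of at least 2-fold in 0 and 0. Mouse 3 showed the most large changes, with 45 members changed at least 2-fold against 26 in mouse 2 and 14 in mouse 1. Ranges of treated and untreated libraries did not overlap for 35 members that lay above (23.0% of those compared) and 13 that lay below (8.55%).

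**Figure D2:**
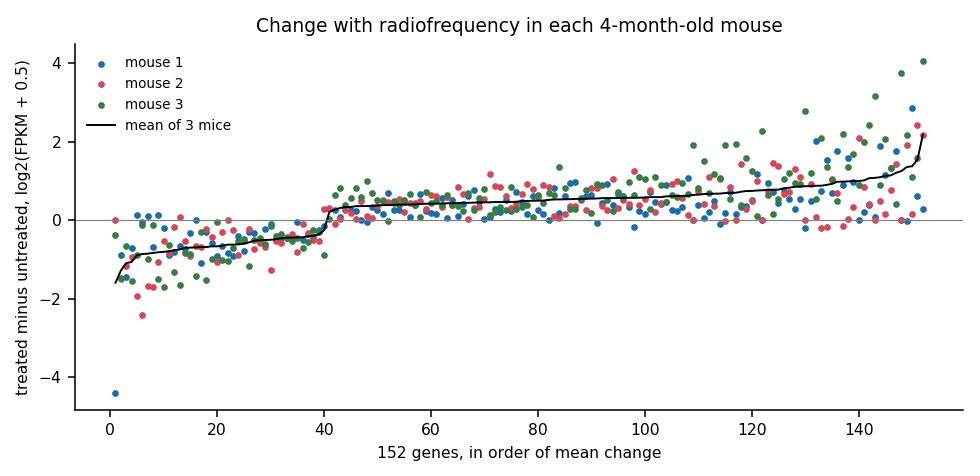
Change with treatment in log2(FPKM + 0.5) for the 152 members, ordered along the horizontal axis by their mean change. Dots are the 3 mice and the line is their mean, 93 members have all 3 dots above 0, and 32 have all 3 below.

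A quasi-likelihood fit in edgeR with the mouse as a block called 29 members higher (19.1%) and 8 lower (5.26%), by a fold of at least 1.2 and an unadjusted p under 0.05. The genes tested had been selected on this contrast, so these calls describe the list. No member passed at an adjusted p under 0.05 in edgeR, where the smallest adjusted p was 0.148 and 37 members had an unadjusted p under 0.05, against 3 with DESeq2. The split depended on how the libraries were scaled. With TMM factors, which hold the bulk of the listed genes level and lowered the 4-month changes by 0.42 on the log2 scale, 8 members were called higher and 34 lower. The calls also depended on single mice, with 6 higher and 5 lower without mouse 3, 18 and 7 without mouse 1, and 19 and 4 without mouse 2. Of the 93 members higher in all mice, 22 were called, and of the 32 lower in all mice, 6.

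The 6 immediate-early members were Fos, Fosb, Atf3, Nr4a1, Klf2 and Dusp1, and 5 of them were higher in all 3 mice, Fos being the exception. Their median change was 0.88, against 0.48 over all members, and 5 of 6 were called higher, beside 19.1% of all members. With TMM factors 0 of the 6 were called, and leaving out a mouse left 0 without mouse 1, 5 without mouse 2 and 1 without mouse 3. Mouse 1 carried most of it, with a median of 1.70, against 0.14 in mouse 2 and 0.79 in mouse 3. Relative to all members, whose median became 0.15 with TMM factors, the list stood at 0.48 there, and 1 of the 6 was then higher in all 3 mice.

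Atf3, a stress-induced transcription factor, read 3.62, 7.44 and 5.48 FPKM in untreated and 14.7, 10.6 and 10.7 FPKM in treated skin of mice 1, 2 and 3. All treated libraries lay above all untreated ones, and mouse 1 had both the lowest and the highest level. The mean change was 1.09 ± 0.71 (SD, n = 3). In edgeR the log2 fold change was 1.16 with a standard error of 0.42 and an adjusted p of 0.148.

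Fos, a subunit of the AP-1 transcription factor, read 6.22, 6.24 and 4.64 FPKM in untreated and 18.8, 5.43 and 12.6 FPKM in treated skin. Treated skin of mouse 2 lay among the untreated libraries, and the other treated libraries lay above them. Its relative Fosb read 0.645, 0.755 and 2.64 FPKM untreated and 7.77, 0.904 and 6.23 FPKM treated, so that the gap in mouse 2 was again small and the groups overlapped. Nr4a1, an orphan nuclear receptor of the same early response, read 11.7, 13.0 and 19.6 FPKM untreated and 48.7, 13.7 and 28.5 FPKM treated. Mouse 1 showed by far the widest gap for both genes.

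Dusp1, a phosphatase that switches off MAP kinases, read 19.8, 24.3 and 15.8 FPKM untreated and 41.8, 26.5 and 25.4 FPKM treated, with no overlap between the groups. Klf2, a zinc finger factor of endothelium and lymphocytes, was the steadiest of the group at 13.1, 12.5 and 13.3 FPKM untreated and 18.3, 14.6 and 19.1 FPKM treated. Its mean change of 0.39 ± 0.16 (SD, n = 3) was not called, and with TMM factors its edgeR change was -0.013. Dusp1 shares exon sequence with Ergic1 on the opposite strand, and the kit did not mark strand, so fragments of the overlap cannot be told apart.

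Epidermal differentiation came next. Of 63 genes on this list, 13 were in the table and 12 were members, and 10 of the 12 were higher in all 3 mice. Their median change was 0.67, against 0.48 over all members, with 0.38, 1.02 and 0.61 in mice 1, 2 and 3. Flg and Flg2, the filaggrin genes, were the members that did not move alike, and in both it was mouse 1 that was lower. The summed level of the 13 listed genes was 1408, 1087 and 529 FPKM in untreated and 1827, 2255 and 826 FPKM in treated skin. Mouse 3 was the lowest in both areas, so the groups overlapped although each pair went up. With TMM factors the median was 0.30 and 5 of the 12 were higher in all 3 mice, and with libraries scaled to the sum of the listed counts 0.17 and 3. In edgeR 4 of the 12 were called higher, beside 19.1% of all members. That number was 0 with TMM factors, with scaling by the listed counts, without mouse 2 and without mouse 3. It was 4 without mouse 1 and 8 with the 4-month libraries alone. The list was chosen with earlier results of these data known and its genes were selected on this contrast.

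**Figure D3:**
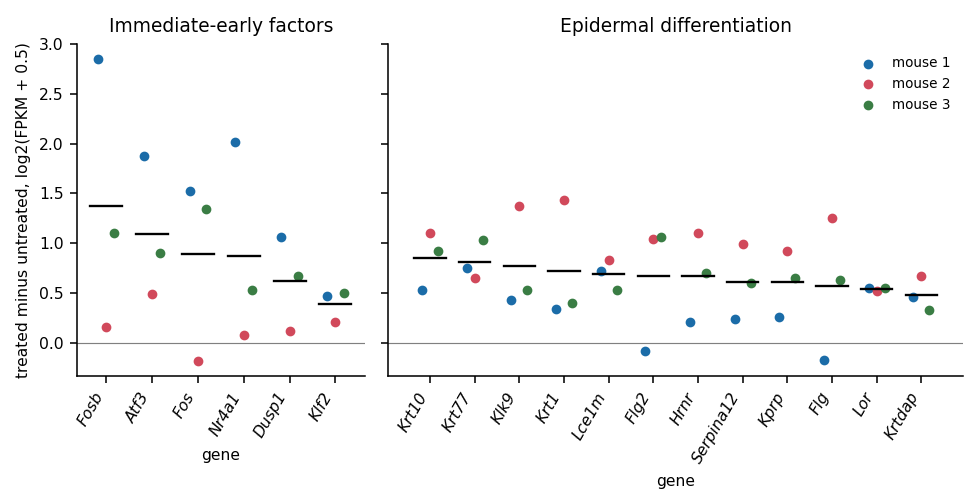
Change with treatment in log2(FPKM + 0.5) for 6 immediate-early genes (left) and 12 epidermal differentiation genes (right). Dots are the 3 mice and bars their mean. Mouse 1 is the highest for each immediate-early gene except Klf2, and all dots but those of Fos in mouse 2 and of Flg and Flg2 in mouse 1 are above 0.

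Krt10, the keratin of the suprabasal layers, read 385, 301 and 182 FPKM in untreated and 558, 646 and 346 FPKM in treated skin. Each treated area was well above the untreated area of the same mouse, while treated skin of mouse 3 fell within the untreated range. The mean change was 0.85 ± 0.29 (SD, n = 3). Its partner Krt1 read 277, 214 and 106 FPKM untreated and 351, 579 and 140 FPKM treated, with the widest gap in mouse 2.

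Krt77, a suprabasal keratin related to Krt1, read 106, 34.9 and 10.7 FPKM untreated and 179, 55.1 and 22.5 FPKM treated. The mice differed from each other far more than the areas did, and the changes were alike, at 0.75, 0.65 and 1.04. Lor, loricrin, the main protein of the cornified envelope, read 42.2, 36.0 and 14.3 FPKM untreated and 62.0, 51.8 and 21.1 FPKM treated. Its changes of 0.55, 0.52 and 0.55 were nearly equal in the 3 mice. Lce1m, a late cornified envelope gene, read 10.8, 8.82 and 4.01 FPKM untreated and 18.1, 16.1 and 5.996 FPKM treated, again with every pair upward and with overlapping groups.

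Flg read 273, 141 and 67.2 FPKM untreated and 242, 337 and 104 FPKM treated. Its paired changes of -0.17, 1.25 and 0.63 did not share a direction. Hrnr, hornerin, a relative of filaggrin, changed by 0.21, 1.1 and 0.70, and Kprp, a proline-rich keratinocyte protein, by 0.26, 0.92 and 0.65. Klk9, a kallikrein-related protease gene, changed by 0.42, 1.37 and 0.53, and Serpina12, the serpin vaspin, by 0.24, 1.00 and 0.60. Mouse 2 changed most and mouse 1 least in each of these 4 genes. Krtdap, a keratinocyte differentiation protein, had the smallest mean change of the group, 0.48 ± 0.17 (SD, n = 3).

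The promoters of the epidermal differentiation and immediate-early members, whether or not a gene moved alike in the 3 mice, were compared by letter matches in the 250 bases upstream of the transcription start, taken from RefSeq on build GRCm38.p6, where 119 of the 152 members had an entry. Both strands were searched. The TATA box, TATAAA, was found upstream of 6 of the 10 epidermal differentiation members with an entry (Flg, Hrnr, Krt10, Krtdap, Lce1m and Lor), and in 20.2% of members and 14.3% of all 27025 genes with an entry. The AP-1 element, TGANTCA, was found in 4 of the 10 (Flg, Flg2, Krtdap and Lor), against 7.82% of all genes and 11.8% of members. Of the 6 immediate-early members, Fos held the TATA box and Dusp1 held the cyclic AMP response element, TGACGTCA, which 1.77% of all genes held. The heat shock element core, GAANNTTC, was in 2.52% of members and 7.73% of all genes, and in no gene of either group. The serum response element core, CCATATTAG, was in no member in this window and in 0.12% of all genes. A match is a run of letters and not a measured binding site. Windows of Lor (chr3:92083143-92083392, minus strand), Krt10 (chr11:99389365-99389614, minus strand) and Fos (chr12:85473640-85473889, plus strand) are shown 5′ to 3′ as examples of both groups, with the AP-1 element and the TATA box in capitals. They overlap no annotated exon, and the table itself gives no coordinates.
Lor: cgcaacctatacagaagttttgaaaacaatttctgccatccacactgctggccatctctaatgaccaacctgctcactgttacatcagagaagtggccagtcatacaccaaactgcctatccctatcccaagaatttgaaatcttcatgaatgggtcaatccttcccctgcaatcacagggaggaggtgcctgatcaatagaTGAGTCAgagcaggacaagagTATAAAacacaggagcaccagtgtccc
Krt10: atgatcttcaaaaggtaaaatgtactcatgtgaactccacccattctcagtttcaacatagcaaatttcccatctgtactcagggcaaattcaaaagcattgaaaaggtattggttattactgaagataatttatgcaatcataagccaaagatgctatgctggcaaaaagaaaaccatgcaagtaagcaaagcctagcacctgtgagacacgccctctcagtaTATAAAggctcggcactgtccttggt
Fos: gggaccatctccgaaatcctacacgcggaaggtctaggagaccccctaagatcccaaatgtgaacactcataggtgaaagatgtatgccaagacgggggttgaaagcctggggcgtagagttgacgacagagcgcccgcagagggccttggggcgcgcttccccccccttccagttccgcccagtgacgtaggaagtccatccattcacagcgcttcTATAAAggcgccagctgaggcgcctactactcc
The AP-1 match of Lor began 48 bases and its TATA box 27 bases before the start, and the TATA box of Krt10 began 26 and that of Fos 33 bases before it.

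Of 5 chemokine and cytokine members, Ccl6, Ccl20, Il18 and Tslp were higher in all 3 mice and Ccl4 was not. Their median change of 0.56 was close to the 0.48 of all members, and it was 0.16 with TMM factors and 0.03 with libraries scaled by the listed counts. Tslp, an epithelial cytokine that acts on dendritic and mast cells, read 0.558, 1.17 and 1.27 FPKM untreated and 1.22, 2.96 and 3.07 FPKM treated. Every treated area had over 2 times the level of its untreated partner, and treated skin of mouse 1 lay within the untreated range. Its mean change was 0.92 ± 0.19 (SD, n = 3), and edgeR called it higher with a log2 fold change of 1.24, a standard error of 0.50 and an adjusted p of 0.148.

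Il18, a keratinocyte-made cytokine of the interleukin 1 family, read 8.64, 15.9 and 9.97 FPKM untreated and 13.4, 22.8 and 15.2 FPKM treated. The pairs changed by nearly the same amount, 0.60, 0.50 and 0.59, and the change was not called. Ccl20, a chemokine for cells bearing Ccr6, read 0.610, 0.481 and 0.068 FPKM untreated and 3.27, 2.13 and 0.259 FPKM treated. It rested on at most 65 counts in a library. Ccl4, a macrophage chemokine, had 92 of its counts in untreated skin of mouse 2 and at most 21 in any other library of this age.

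**Figure D4:**
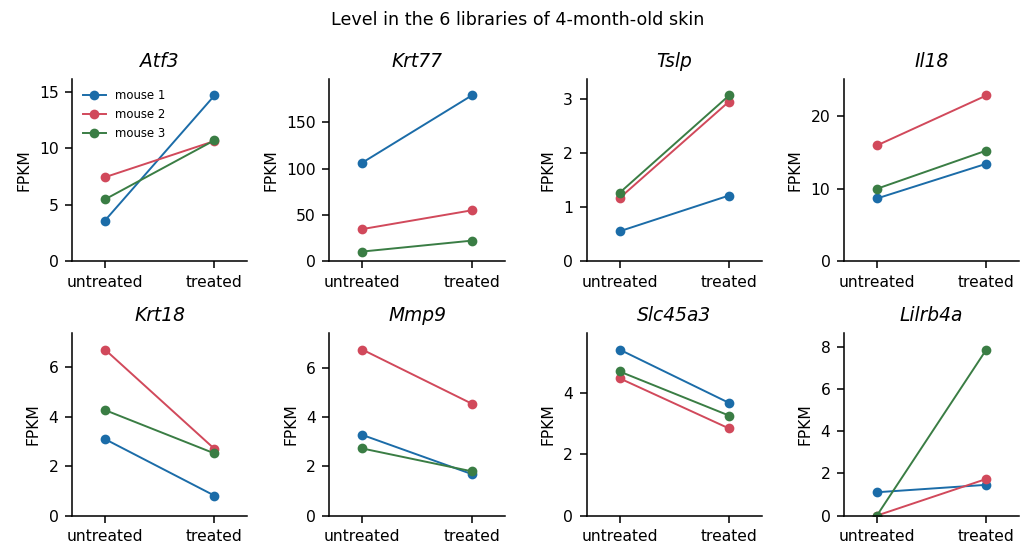
FPKM of 8 members in untreated and treated skin of each 4-month-old mouse, joined by a line per mouse, on linear axes that start at 0. Atf3, Krt77, Tslp and Il18 go up and Krt18, Mmp9 and Slc45a3 go down in every mouse, while the level of Lilrb4a in treated skin of mouse 3, 7.86 FPKM, exceeds its other 5 values.

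Of the IL-17 and TNF target list 5 members were measured (Fos, Fosb, Ccl20, Mmp9 and Mmp13), of which 2 were higher and 1 was lower in all 3 mice. Beside a median of 0.89 the single mice read 1.52, -0.18 and 0.42, so mouse 2 did not share the direction. The median over all members was 0.48. With TMM factors the list stood at 0.50 against 0.15 over all members, and with scaling by the listed counts at 0.38 against 0.03.

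Immune cell genes did not move as a block. The macrophage and monocyte members Itgam, Lilrb4a and Ncf1 were all higher in all 3 mice, with a median change of 0.45, close to that of all members. That median was 0.06 for the 3 genes with TMM factors and -0.07 under scaling by the listed genes. Itgam, the integrin CD11b of myeloid cells, read 7.403, 7.07 and 6.24 FPKM untreated and 10.4, 9.0 and 9.42 FPKM treated, without overlap. Its changes of 0.47, 0.33 and 0.56 were alike. Its edgeR change of 0.48 had a standard error of 0.56 and was not called in the fit that shares its spread with the 1-year-old mice, whose changes in this gene ranged from -0.64 to 3.16. With the 4-month libraries alone it was called, at the same fold change and an unadjusted p of 0.0175 in edgeR, and with TMM factors its log2 fold change was 0.06. In bulk tissue a change in the number of cells of a type cannot be told apart from a change in mRNA per cell.

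Lilrb4a, an inhibitory receptor of myeloid cells, read 1.1, 0 and 0 FPKM untreated and 1.46, 1.73 and 7.86 FPKM treated, with 0 counts in 2 untreated libraries. It is one of a family of near-identical genes and its fragments may have been divided among copies, so its level is uncertain. Ncf1, a subunit of the phagocyte oxidase, changed by 0.76, 0.31 and 0.25. The neutrophil list went the other way for 2 of its 3 members. Fpr2, a formyl peptide receptor, was lower in all 3 mice with 36 counts at most, and Mmp9 was lower too, while Itgam is shared with the macrophage list.

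Ly9, a surface receptor of lymphocytes, was higher in all 3 mice, at 1.73, 2.04 and 1.61 FPKM untreated and 3.62, 3.00 and 2.41 FPKM treated. Jchain, the joining chain of secreted antibodies, was lower in all 3, by 0.20, 0.53 and 1.71 in mice 1, 2 and 3. The mast cell gene Ms4a2, the beta chain of the IgE receptor, read 2.23, 6.38 and 9.27 FPKM untreated and 2.48, 2.78 and 2.92 FPKM treated. It was lower in mice 2 and 3 and not in mouse 1, and treated areas were alike where untreated ones were not. The interferon-induced members Ifit2 and Iigp1 were both higher in all 3 mice, with a median change of 0.44, below the 0.48 of all members, and of 0.06 with TMM factors and -0.06 under scaling by the listed genes.

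Of the 3 members of the matrix list, Tnc was lower and Aspn higher in all 3 mice. The third, Lrrtm4, encodes a neuronal membrane protein and not a matrix protein. Tnc, tenascin C, a matrix glycoprotein of wounds and growing hair, read 9.15, 12.1 and 8.97 FPKM untreated and 4.65, 9.99 and 5.28 FPKM treated. Treated skin of mouse 2 lay within the untreated range. It was called lower, with a log2 fold change of -0.68, a standard error of 0.29 and an adjusted p of 0.148 in edgeR. Aspn, asporin, a small proteoglycan that binds collagen, changed by 0.29, 0.87 and 0.22, and it shares exon sequence with Cenpp on the opposite strand. Lrrtm4 had 75.3% of its counts in treated skin of mouse 2 and at most 5 counts in mice 1 and 3.

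Mmp9, gelatinase B, a protease of neutrophils, macrophages and keratinocytes, read 3.28, 6.75 and 2.73 FPKM untreated and 1.69, 4.55 and 1.80 FPKM treated. All pairs went down by a similar amount, -0.79, -0.52 and -0.49, and the groups overlapped because mouse 2 was high in both areas. Mmp13, an interstitial collagenase, had 598 of its counts in untreated skin of mouse 2 and no common direction. That library also held 338 counts of Chrng, the gamma subunit of the fetal acetylcholine receptor of muscle, against at most 16 in the other libraries of this age.

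Among members with a mean of at least 1 FPKM, those lower in all 3 mice by the widest margin were led by Krt18, a keratin of simple epithelia that in skin marks Merkel cells. Atoh1, a transcription factor of the same cells and no member, had 0 counts in all untreated libraries and 1, 3 and 3 counts in treated skin. None exceeded the 3 counts taken as the smallest level seen, so Atoh1 gave no direction. Krt18 read 3.09, 6.71 and 4.27 FPKM untreated and 0.806, 2.70 and 2.51 FPKM treated, and the groups did not overlap. The changes were -1.46, -1.17 and -0.66, and edgeR did not call it, with a log2 fold change of -1.33 and a standard error of 0.76. It was called with TMM factors, at a log2 fold change of -1.75, and in the fit of the 4-month libraries alone, at -1.32. Nrg1, neuregulin, a ligand of ERBB receptors, read 2.39, 1.27 and 0.826 FPKM untreated and 1.05, 0.486 and 0.352 FPKM treated. The ratio of treated to untreated was similar in the pairs, and mouse 1 was the highest in both areas.

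Slc45a3, a membrane transporter, read 5.41, 4.47 and 4.70 FPKM untreated and 3.67, 2.84 and 3.26 FPKM treated, without overlap. Acsm3, a mitochondrial medium-chain acyl-CoA synthetase, changed by -0.45, -0.42 and -0.47, and Hes6, a basic helix-loop-helix factor of the Hes family, by -0.23, -0.69 and -0.60. Elp6, a subunit of the Elongator complex, changed by -0.59, -0.44 and -0.98. The other members of this group were Gm2026, Rbm12b2, Gm28042 and BC016579, whose mean changes lay between -0.71 and -0.41. Gm28042 shares exons with Jmjd7 and Pla2g4b on the same strand. Mmp9 and Tnc belonged to this group too.

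Among members with a mean of at least 1 FPKM, those higher in all 3 mice by the widest margin were led by Serpina1a, an alpha-1 antitrypsin gene, at 3.38, 4.23 and 2.06 FPKM untreated and 9.23, 7.48 and 5.92 FPKM treated, without overlap. Its smallest change in a mouse was 0.754, the largest such value of all members with at least 1 FPKM. Alpha-1 antitrypsin is chiefly a liver product and the gene belongs to a family of near-identical copies. It was on the liver list, and its counts in treated skin were 296, 232 and 205, so that mouse 3 was not above mice 1 and 2. Gadl1, a decarboxylase of muscle and other tissues, changed by 0.55, 0.72 and 1.2, and Arxes1, an adipocyte-related gene, by 0.48, 0.92 and 1.19. Gm14434, a zinc finger gene of a family of close copies, had 0 and 10 counts in mouse 2. Krt77, Krt10, Lce1m, Lor, Tslp, Il18, Atf3 and Ly9 made up the rest.

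The genes annotated by the authors to complement and coagulation included 10 members, of which 6 were higher in all 3 mice, with a median change of 0.61. The median was 1.34 in mouse 3, against 0.54 and 0.24 in mice 1 and 2. Fga and Fgb, fibrinogen chains, had 74 and 132 counts in treated skin of mouse 3 and at most 6 in any other library of this age, and 7 of the 10 were on the liver list. Serpinc1, antithrombin, read 0.078, 0.25 and 0.369 FPKM untreated and 0.632, 0.442 and 2.28 FPKM treated, so that its treated range lay above the untreated one in mice 1 and 2 too.

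The liver and pituitary genes counted among the calls. Of the 29 members called higher, Apoa4, Fgb, Cyp3a41a and Serpinc1 were on the liver list and Prl on the pituitary list. Apoa4, Cyp3a41a and Prl had at least 99.0% of their 4-month counts in treated skin of mouse 3 and Fgb had 95.0%. Over all members, 17 had more than 70% of their counts in a single library, 11 of them in treated skin of mouse 3 and 4 in untreated skin of mouse 2. The source of these fragments was not tested.

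The 5 striated muscle members Xirp1, Smtnl2, Mss51, Myf5 and Chrng did not move as a block. Their median change was 0.45, against 0.48 over all members, and 0.15 with TMM factors and 0.03 with scaling by the listed counts, with -0.02, 0.55 and 0.79 in mice 1, 2 and 3. Xirp1, Smtnl2 and Mss51 were higher in treated skin of mice 2 and 3, by between 0.55 and 2.16, Chrng went from 338 to 16 counts in mouse 2 and had at most 1 count in mice 1 and 3, and Myf5 changed by 0.61, 0.02 and 0.69. The summed level of the 5 was 15.03, 27.4 and 24.4 FPKM in untreated and 15.1, 38.3 and 48.8 FPKM in treated skin. Xirp1, a repeat protein of muscle attachment sites, read 4.45, 9.92 and 7.08 FPKM untreated and 4.164, 17.96 and 13.7 FPKM treated. How much of the panniculus muscle each piece of skin contained was not tested.

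Of the 27 genes that the study names, 15 were members, 9 higher and 4 lower in all 3 mice, with a median change of 0.45, and the study picked them from these samples. Marchf7, a membrane-bound ubiquitin ligase, read 26.0, 21.0 and 27.5 FPKM untreated and 28.7, 39.6 and 37.6 FPKM treated, without overlap, and was not called, with an edgeR log2 fold change of 0.50 and a standard error of 0.29. Smtnl2, a muscle protein of the smoothelin family, read 8.83, 10.7 and 16.2 FPKM untreated and 8.93, 15.8 and 28.3 FPKM treated, with hardly any gap in mouse 1.

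The 1-year-old mice offered the same measure in libraries that the selection at 4 months did not use. Of the 93 members higher in all 3 mice at 4 months, 40 had a higher and 52 a lower mean in treated skin at 1 year, 9 were higher in all 3 mice and 21 lower in all 3. Of the 32 members lower in all 3 mice at 4 months, 11 had a higher and 21 a lower mean, 0 were higher in all 3 mice and 8 lower in all 3. Over the 152 members, 13 were higher and 33 lower in all 3 mice at 1 year, and edgeR called 9 higher (5.92%) and 20 lower (13.2%) there by the same rule. Under scaling by the listed genes the calls turned to 29 higher and 8 lower. Of the members alike at 4 months, 21 were opposite in all 1-year-old mice, 10 with TMM factors, while 17 went the same way. Without each 1-year-old mouse in turn 35, 45 and 26 were opposite and 23, 24 and 45 went the same way. Such counts can only stay or rise when fewer mice must agree, so they do not show the weight of a mouse. The calls at 1 year did depend on single mice, at 5 and 14, 7 and 28, and 19 and 14, higher and lower, without each in turn.

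**Figure D5:**
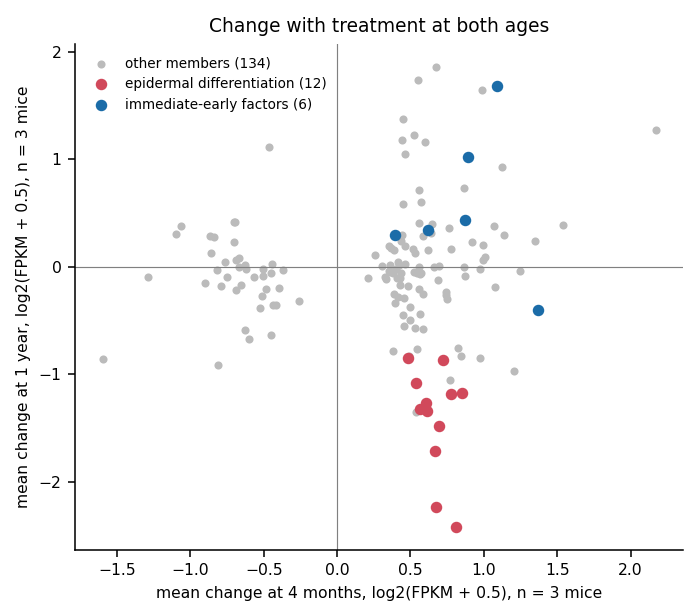
Mean change with treatment in log2(FPKM + 0.5) at 4 months (horizontal) and at 1 year (vertical) for the 152 members, n = 3 mice at each age. The 12 epidermal differentiation genes (red) are all right of 0 and below 0, and 5 of the 6 immediate-early genes (blue) are above 0 on both axes, Fosb being the other.

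The epidermal differentiation members went the opposite way at the older age. All but Krt1 were lower in all 3 mice, and the median change was -1.29 against -0.05 over all members. In edgeR 11 of 12 were called lower, beside 13.2% of all members. Also lower in all 3 mice were 11 of 12 with TMM factors (median -1.27), where 11 were called lower, and 11 of 12 under scaling by the listed genes (median -0.80), where 7 were called. Without the first 1-year-old mouse 7 were called and with the mouse left out of the model 7. Krt77 read 241, 119 and 152 FPKM in untreated and 48.5, 40.4 and 13.8 FPKM in treated skin at 1 year. All treated libraries lay below all untreated ones, and the log2 fold change was -2.44 with an adjusted p of 0.00707 in edgeR. Lce1m read 67.0, 28.9 and 26.4 FPKM untreated and 20.7, 12.7 and 8.27 FPKM treated, again without overlap, with a log2 fold change of -1.49 and an adjusted p of 0.00707. Untreated skin of the first 1-year-old mouse was the highest for both genes.

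The test of the difference between the ages passed at an adjusted p under 0.05 for 8 of the 152 members (5.26%), and 6 of these were epidermal differentiation genes, Krt77, Flg2, Hrnr, Serpina12, Lce1m and Kprp. Their 4-month change was part of the selection of the table, which widens such a difference. The count was 0 without the second 4-month-old or without the first 1-year-old mouse and 0 with the mouse left out of the model, where 23 members had an unadjusted p under 0.05, and 25, 12 of them epidermal, without the second 1-year-old mouse. Without mouse 3 it was 5, 3 of them epidermal. With TMM factors 7 passed, 5 of them epidermal, and under scaling by the listed genes 7, 3 of them epidermal. Flg2 read 34.4, 14.3 and 11.4 FPKM untreated and 7.11, 3.28 and 1.55 FPKM treated at 1 year, against 14.0, 2.81 and 1.43 and 13.1, 6.32 and 3.52 FPKM at 4 months. At 1 year the log2 fold change was -2.42, and the difference of -3.22 between ages had an adjusted p of 0.00957.

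At 1 year 4 of the 6 immediate-early genes, Fos, Atf3, Nr4a1 and Dusp1, were higher in all 3 mice, with a median change of 0.39 over the 6, and 2 of the 6 were called higher, beside 5.92% of all members. Atf3 read 4.90, 3.31 and 3.73 FPKM untreated and 37.8, 9.73 and 6.90 FPKM treated, without overlap, and its log2 fold change of 1.79 had an adjusted p of 0.0490 in edgeR. Fos read 11.1, 3.42 and 2.52 FPKM untreated and 33.6, 6.55 and 4.28 FPKM treated, with every pair upward and overlapping groups, and its adjusted p was 0.143. Fosb and Klf2 did not move alike, with changes of -1.09, -0.16 and 0.06 for Fosb and 0.56, 0.36 and -0.04 for Klf2.

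Mmp9 was lower in every mouse at 1 year as well, at 6.04, 2.14 and 3.73 FPKM untreated and 4.61, 1.51 and 1.27 FPKM treated, and its log2 fold change of -0.81 had an adjusted p of 0.184 in edgeR. Acsm3 and Slc45a3 also kept their direction in all 3 mice. Krt18 did not, at 0.030, 0.933 and 0.169 FPKM untreated and 0.809, 0.508 and 0.227 FPKM treated. Xirp1 was higher in all 3 mice at 1 year, by 1.29, 1.73 and 2.19, with a log2 fold change of 1.92 and an adjusted p of 0.00707. Itgam changed by 3.16, 1.62 and -0.64 at that age, so the mice did not share a direction.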

How the data were processed

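Oligo(dT)-selected RNA of 12 skin areas was sequenced by the authors with a kit that does not mark strand, on an Illumina NovaSeq. The authors deposited FPKM values, scaled by the authors to transcript length and to the whole library, and estimated counts per gene, which were not normalized and of which 8.96% in the 4-month libraries were not whole, for 465 selected genes. The submitters' processing notes name Bowtie2 2.2.8 and build GRCm39, and the counting program is not given in the sources used here. Columns not mapped to a sample numbered 0.

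Library totals were recovered from count, FPKM and length of 8 genes with 1 transcript in GENCODE M21 (agreement within 0.013%) and served as library sizes, since TMM takes most listed genes as unchanged. Rounded counts of all 12 libraries were fitted in edgeR 4.0.16 (R 4.3.3; glmQLFit, glmQLFTest) with a term for each mouse and for treatment at each age, leaving 4 residual degrees of freedom. Members had a mean count of at least 10 over the 6 libraries. Calls needed a fold of at least 1.2 and an unadjusted p under 0.05, as in the study's methods, and p-values were adjusted by the Benjamini-Hochberg procedure over the 152 members. Standard errors are the log2 fold change over the square root of its F statistic. The procedure was run on simulated data with larger changes and less scatter than here, so that run does not show how well modest changes are found. With 3 pairs an exact two-sided sign-flip test cannot go below 0.25 and was not used. DESeq2 and limma were alternatives.

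Libraries with the same number came from the same mouse by the labels and the methods. Deviations from the group means correlated at 0.56, 0.59 and 0.62 within and between -0.42 and -0.15 across mice, over 152 genes. Exons of 22 members overlapped another gene on the same strand and of 32 on the opposite strand (GENCODE M21), among them Serpinb2, Itgam, Lilrb4a and Slc45a3, and Krt10, Tnc, Ncf1, Acsm3, Gadl1, Nrg1 and Rbm12b2, so fragments there may belong to either gene. Depth limits precision, and 3 counts was taken as the smallest level seen. The members and lists were chosen with earlier results of these data known. Genes named were those the study names, those of the lists, the 12 per direction with the largest smallest change in a mouse among members alike in all 3 mice with a mean of at least 1 FPKM, and the 5 with the highest mean FPKM. The genes Prl, Fga, Fgb, Apoa4, Cyp3a41a, Serpinc1, Atoh1, Kctd4, Bbox1, Dnajb9 and Gpr143 and the liver and pituitary lists were chosen after their values were seen. Of further lists, the basal keratinocyte list had 1 member, Serpinb2, with changes of 0.70, 0.46 and -0.02, and the hair follicle and neuron lists had 0 members.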

Additional observations from a re-analysis of the deposited data

Results flagged for a closer look

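The treatment change differed between the ages, in a test of the difference itself with an adjusted p under 0.05, for 8 members, each with a fitted log2 fold change above 0 at 4 months and below 0 at 1 year. At 4 months none of the 8 passed at an adjusted p, Hrnr and Krt77 were not called, and Flg2 changed by -0.09 in mouse 1. The difference, 1-year minus 4-month log2 fold change, was -2.11 for Lce1m, -2.36 for Serpina12, -3.26 for Krt77, -3.22 for Flg2, -2.54 for Hrnr and -1.98 for Kprp, with adjusted p-values in edgeR of 0.00957, 0.00957, 0.00957, 0.00957, 0.0098 and 0.0101. Outside the lists, and named after its value was seen, Kctd4, a gene of the potassium channel tetramerization domain family, differed by -2.29 with an adjusted p of 0.0329. It read 1.37, 0.969 and 0.623 FPKM in untreated and 1.79, 3.12 and 1.66 FPKM in treated skin at 4 months, and 3.92, 1.32 and 1.82 against 1.66, 0.804 and 0.674 FPKM at 1 year. Likewise Bbox1, the last enzyme of carnitine synthesis, differed by -2.03 with an adjusted p of 0.0392, at 2.97, 3.38 and 2.98 against 6.25, 4.49 and 3.76 FPKM at 4 months and 14.4, 5.18 and 7.41 against 2.81, 3.84 and 2.28 FPKM at 1 year. The genes had been selected for their change at 4 months, and none of the 8 passed without the second 4-month-old mouse or without the first 1-year-old mouse.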

How the results depend on the processing

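The counts of members called 29 higher and 8 lower moved with most settings. They were 8 and 34 with TMM factors, 7 and 38 when library size was the sum over listed genes, 74 and 25 with the 4-month libraries alone, 19 and 4 at a mean count of at least 50, 74 and 37 over all listed genes with no filter, where 12 passed at an adjusted p under 0.05, and 15 and 2 with no replicate block. The lower calls were 14 with filterByExpr, 13 with DESeq2 and 15 with limma on FPKM, beside 37, 43 and 30 higher. Leaving out 1 of the 4-month-old mice gave 6 to 19 higher and 4 to 7 lower, the fewest higher (6) without mouse 3, and leaving out 1 of the 1-year-old mice, added after seeing the data, gave 30 to 47 higher and 11 to 14 lower (47 and 14 without the second, 44 and 11 without the third).

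Members higher and lower in all 3 mice, 93 and 32, became 39 and 37 with TMM factors, 25 and 40 when scaled by listed genes, 41 and 18 at 1.2-fold in each mouse, 5 and 4 at 1.5-fold, 140 and 80 with no filter, 35 and 13 without the pairing (ranges not overlapping), and 19 lower at a mean count of at least 50. Leaving out a mouse gave 94 to 100 and 32 to 36, counts that can only stay or rise when fewer mice must agree. The epidermal median of 0.67 became 0.30 under TMM scaling and 0.17 when libraries were scaled by the listed counts, the latter chosen after seeing the data. Without a mouse it was 0.46 to 0.87, and the immediate-early median was 0.49 to 1.33. With the sum of listed counts the medians of the matrix list (-0.09), macrophage list (-0.07), interferon list (-0.06) and genes named by the study (-0.08) reversed, as did that of the T, B and NK cell list without mouse 3 (0.16, and -0.33 without mouse 1) and the change of Klf2 with TMM factors (-0.013). No other of 472 values for 59 named genes changed sign.

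The members with the opposite direction at 1 year, 21, became 10 with TMM factors, 2 at 1.5-fold, and 26 to 45 without a 1-year-old mouse, and those with the same direction, 17, became 1 at 1.5-fold and 23 to 45. Without a mouse these counts could only stay or rise. Calls at 1 year, 9 higher and 20 lower, became 29 and 8 under scaling by listed genes, 8 lower with no replicate block, 19 higher with no filter, and 5 to 19 higher and 14 to 28 lower without a 1-year-old mouse. The 8 differences between ages became 0 with no replicate block, 13 with filterByExpr, 26 with no filter, 0 to 7 without a 4-month-old mouse and 0 to 25 without a 1-year-old mouse. These alternatives for 1 year and for the age difference were added after seeing the data, and edgeR with the mouse as replicate block is what the study's paired design calls for. The cause was not tested. At 3 mice an age, only changes well above the spread of the paired changes could be seen.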
